A study of Mus musculus with 6 samples.

Results

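The small leucine-rich proteoglycans examined here are 9 mouse genes, Dcn, Lum, Bgn, Fmod, Ogn, Omd, Prelp, Aspn and Podn, taken by symbol from the 56748 genes of the deposited count table, and all 9 symbols matched a row. Of these 9, 8 had enough reads to be tested and Lum did not. The libraries came from mouse adipose-derived stem cells (ADSC), stromal cells grown from fat, of which 3 libraries are labelled mock and 3 are labelled as overexpressing the integrins VLA-4 and LFA-1. The mock cells carry an empty vector according to the treatment text, are called unmodified in the design text, and are given as WT under genotype, while the other cells received Vla4 and Lfa1 at the same time. All 6 libraries share the same culture conditions, DMEM of normal glucose with serum and antibiotics. The labels give no vector, promoter or mouse strain. They also do not say that replicates were separate cultures, so the spread behind each p-value may be only technical.

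These proteins are secreted into the matrix, where a core of leucine-rich repeats folds into a curved solenoid that binds collagen. They set the width and spacing of collagen fibrils, and several bind TGF-beta or signal through cell surface receptors. Class I holds decorin (Dcn) and biglycan (Bgn), which carry chondroitin or dermatan sulfate chains, and asporin (Aspn), which has an aspartate-rich start in place of a chain. Class II holds fibromodulin (Fmod), lumican (Lum), osteomodulin (Omd) and Prelp, class III holds osteoglycin (Ogn), and podocan (Podn) belongs to class V. In fat, as in other connective tissue, they are made mainly by fibroblast-like stromal cells.

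Library totals ran from 15723888 to 18381083 counts. No subunit gene of the transduced integrins had more reads in the libraries labelled as overexpressing them. The alpha chain gene of VLA-4, Itga4, was lower there, at 2.51 ± 0.279 against 6.51 ± 1.48 CPM (read counts relative to the scaled library size; SD, n = 3; edgeR adjusted p = 1.28e-05), and its partner Itgb1 was at 2228 ± 123 against 2784 ± 44.6 CPM. The LFA-1 genes Itgal and Itgb2 were too low to test, with 7 counts of Itgal in each group and 15 counts of Itgb2 against 38 in mock. The files do not show whether the transduced sequences would be counted in these genes, and every direction given is between libraries as labelled. Of 10 stromal markers, all tested, 6 were lower in the libraries labelled overexpressing and 4 were not called, with a summed level of 19540 to 20830 CPM in mock and 10980 to 12830 CPM in overexpressing libraries. Most of that sum was Col1a1, and the other 9 markers summed to 7023 to 7131 CPM in mock and 5932 to 6268 CPM in overexpressing libraries. Vim, Cd44 and Pdgfra, named after their values were seen, were among the 4 not called, while 6 of the 10 fell. All 10 had reads, although Nt5e (CD73) stayed near 0, at 0.387 ± 0.21 and 0.527 ± 0.0421 CPM. Schwann cell markers moved the same way as the proteoglycans, with 7 of 8 tested markers lower out of 13 listed, against 23% lower over all tested genes. Their summed level was 35.5 to 42.1 CPM in mock against 8.01 to 8.83 CPM in overexpressing libraries, where Cdh19, Foxd3 and Gfra3 were at 0. A marker at 0 there can be tested only because of its mock reads, and cannot be called higher. The count of lower Schwann markers is therefore partly set by the filter on low counts. The part of Schwann cells in the results was not tested, and in bulk RNA fewer cells of a type and less RNA per cell cannot be told apart. The 8 endothelial markers summed to 15.8 to 19.4 CPM in mock and 22.0 to 23.0 CPM in the others (4 tested, 1 lower, 1 higher), with Cdh5 at 5.03 and 3.74 CPM and Tek at 6.02 and 15.5 CPM on average. The 8 macrophage markers summed to 18.9 to 22.9 and 14.6 to 16.7 CPM (3 tested, 1 lower). Ptprc and Adgre1, named after their values were seen, were at no more than 0.153 CPM on average, so nearly all of that sum came from the other listed markers. The 7 mesothelial markers summed to 40.5 to 46.2 and 34.7 to 37.7 CPM (2 tested, 1 lower, 1 higher), nearly all of it Krt19, with no counts of Wt1. The 8 tendon and cartilage markers summed to 26.2 to 29.7 and 64.9 to 73.4 CPM (6 tested, 1 lower, 2 higher), most of it Sox9, which went from 18.1 ± 1.99 to 58.0 ± 1.83 CPM, while Acan and Thbs4 averaged at most 0.0189 CPM.

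Most of the family was lower in the libraries labelled overexpressing. Of the 8 tested genes, 6 fell (Ogn, Aspn, Fmod, Dcn, Podn and Bgn), Prelp rose slightly, a call that several alternatives end, and Omd was not called (edgeR quasi-likelihood test, adjusted p below 0.05). Over all 14502 tested genes, 45.3% were called, 23% lower and 22.3% higher. The median log2 fold change (overexpressing minus mock) of the 8 genes was -0.998, and that of all tested genes was 0.005. Scaled by library size only, the median of all genes was 0.116 and the calls over all genes were 2385 lower and 4598 higher in place of 3339 and 3233, while the same scaling still gave 6 lower proteoglycans and 1 higher. In 4 genes, Ogn, Aspn, Fmod and Dcn, the fall was 2-fold or more, which 4.84% of all tested genes reached. The CPM of the groups did not overlap for 6 of the 8 tested proteoglycans and for 53.4% of all tested genes.

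**Figure D1:**
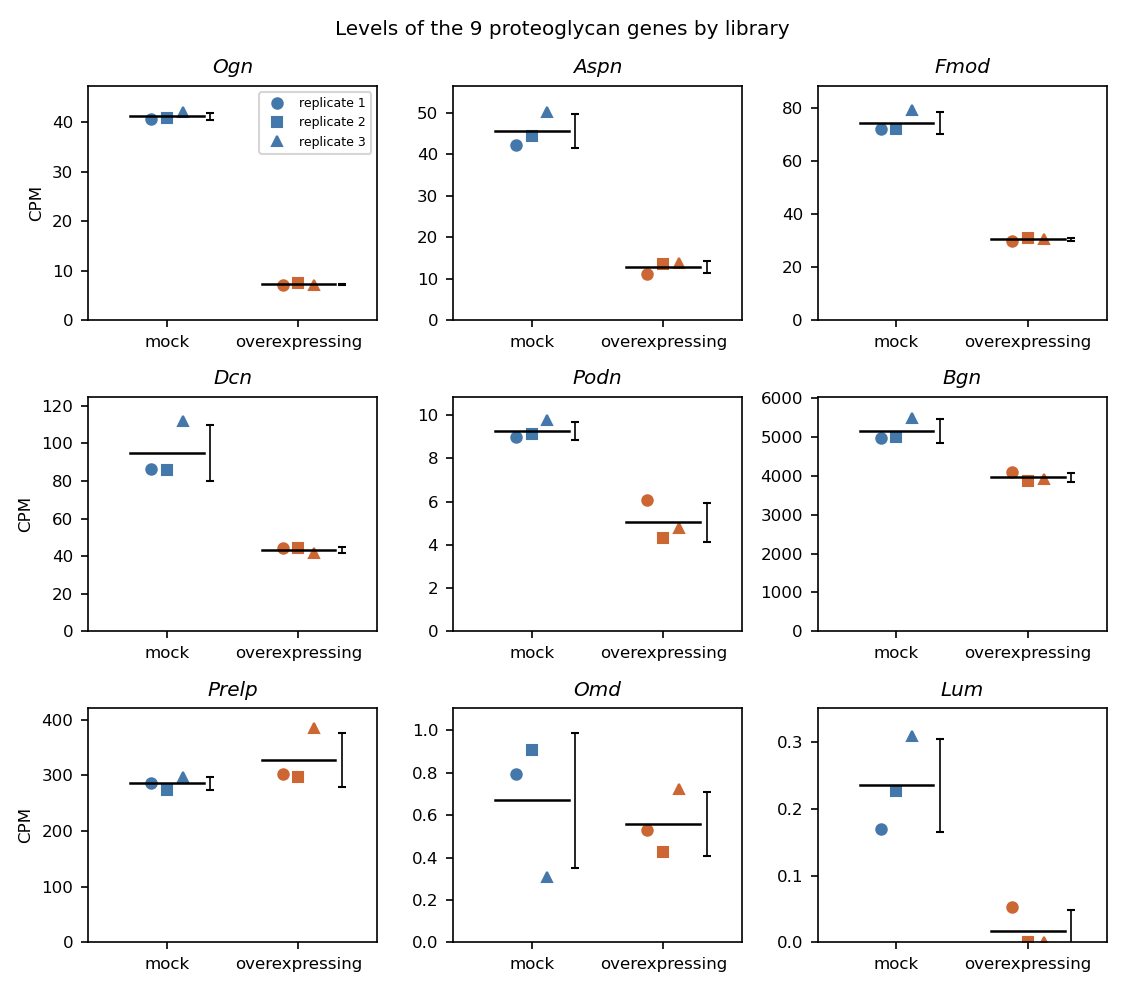
Levels of the 9 genes in CPM on library sizes scaled by TMM, with mock libraries in blue and overexpressing libraries in orange, 1 marker shape per replicate number, a bar at the mean and an error bar of 1 SD (n = 3), each panel with its own linear axis from 0. The groups stand apart for Ogn, Aspn, Fmod, Dcn, Podn, Bgn and the nearly silent Lum, and overlap for Prelp and Omd.

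Among the 8 tested genes osteoglycin fell most. Ogn (ENSMUSG00000021390, chromosome 13, 49761522 to 49777977, plus strand, mm39, whole gene span) is a class III member known for limiting collagen fibril width and for its expression in bone, cornea and vessel walls. Its level was 40.6, 40.9 and 42.1 CPM in mock replicates 1 to 3 and 7.18, 7.47 and 7.23 CPM in overexpressing replicates 1 to 3. The mock libraries were all high and all close together, and the groups were far from overlapping. The log2 fold change was -2.50 (SE 0.096, edgeR adjusted p = 1.66e-15), a 5.65-fold fall. Among all tested genes 0.903% had a lower log2 fold change.

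Asporin, also on chromosome 13 (ENSMUSG00000021388, 49697919 to 49721041, plus strand), had the next largest fall. Asporin binds collagen and TGF-beta and restrains mineralisation and cartilage matrix formation. The Aspn level was 42.2, 44.4 and 50.3 CPM in the mock libraries and 11.1, 13.6 and 13.8 CPM in the overexpressing libraries. Every mock library was above every overexpressing library. The log2 fold change was -1.83 (SE 0.10, edgeR adjusted p = 1.12e-12), a 3.55-fold fall.

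The 250 bases before the RefSeq start of these genes are printed with those of Bgn and Prelp, because Ogn and Aspn had the largest falls while Bgn and Prelp changed least among the called genes. The sequences are from RefSeq on build GRCm38.p6, which is not the build of the count table, and are written 5′ to 3′ on the strand of the gene, at chr13:49607765-49608014 (plus), chr13:49544193-49544442 (plus), chrX:73483351-73483600 (plus) and chr1:133921402-133921651 (minus). Capitals mark matches, on either strand, to TATAAA (the core of a TATA box) or GGAATG (the core bound by TEAD factors). The AP-1 motif TGANTCA and an interferon response motif, a pair of GAAA with NN between them, were also searched.
Ogn: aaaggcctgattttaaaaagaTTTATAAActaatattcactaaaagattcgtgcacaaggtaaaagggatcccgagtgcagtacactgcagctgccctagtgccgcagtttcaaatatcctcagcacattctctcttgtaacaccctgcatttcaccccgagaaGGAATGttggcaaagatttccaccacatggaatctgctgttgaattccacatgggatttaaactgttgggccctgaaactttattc
Aspn: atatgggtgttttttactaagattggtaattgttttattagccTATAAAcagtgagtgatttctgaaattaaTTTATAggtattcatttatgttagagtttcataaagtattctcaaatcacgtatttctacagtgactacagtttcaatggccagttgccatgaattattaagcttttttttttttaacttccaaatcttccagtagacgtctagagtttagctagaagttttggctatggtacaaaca
Bgn: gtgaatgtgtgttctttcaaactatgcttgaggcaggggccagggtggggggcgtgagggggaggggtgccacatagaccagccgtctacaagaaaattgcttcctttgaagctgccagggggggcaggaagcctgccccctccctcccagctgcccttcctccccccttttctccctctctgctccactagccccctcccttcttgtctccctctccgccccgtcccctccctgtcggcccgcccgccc
Prelp: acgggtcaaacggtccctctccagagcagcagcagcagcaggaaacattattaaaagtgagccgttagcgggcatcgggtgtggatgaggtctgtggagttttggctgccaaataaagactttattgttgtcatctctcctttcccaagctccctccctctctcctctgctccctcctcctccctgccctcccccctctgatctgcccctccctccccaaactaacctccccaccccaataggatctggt
TATAAA matched in the windows of Ogn and Aspn, which in Ogn is 1 run of letters read on both strands (bases 229 to 222 before the start), and in Aspn lies at 207 to 202 and at 178 to 173 bases before the start. GGAATG matched once, in Ogn, at 86 to 81 bases before the start. No annotated Ogn transcript searched held the bases just after this start near its beginning, while every other window had at least 1 such transcript. The positions given for Ogn are therefore uncertain. The AP-1 and interferon motifs did not match in any window of the 7 members that have a RefSeq entry (Bgn, Fmod, Ogn, Omd, Prelp, Aspn and Podn). Among 32841 promoter windows of the same length, 12.4% held TATAAA, 12.6% GGAATG, 6.75% TGANTCA and 2.98% the interferon response motif. The share of G and C was 42% in Ogn, 38.4% in Omd and 30% in Aspn, below the lower quartile of all windows (45.2%), against 51.2% in Fmod, 55.6% in Prelp, 64.4% in Bgn, and 78% and 64% in the 2 windows of Podn. These are descriptions of letters and say nothing about which factors bind.

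Fibromodulin and decorin fell by a little over 2-fold. Fmod (ENSMUSG00000041559, chromosome 1, 133964992 to 133976015, plus strand) binds collagen I and guides its crosslinking, and is known from tendon. It stood at 72.0, 71.7 and 79.1 CPM in mock and 29.9, 31.0 and 30.5 CPM in overexpressing libraries. The overexpressing libraries lay close together, and all were below the mock libraries. The log2 fold change was -1.29 with SE 0.073 (edgeR adjusted p = 1.89e-12).

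Dcn (ENSMUSG00000019929, chromosome 10, 97315471 to 97354005, plus strand) encodes decorin, which wraps collagen I fibrils, binds TGF-beta, and can occupy the EGF and HGF receptors. Its level was 86.5, 85.9 and 112 CPM in mock and 44.2, 44.6 and 41.5 CPM in overexpressing libraries. Mock replicate 3 was higher than the other mock libraries, and the groups did not overlap. The log2 fold change was -1.12 (SE 0.086, edgeR adjusted p = 3.75e-10), a 2.18-fold fall, and it ranged from -1.19 to -0.99 over the 12 alternative analyses.

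Podocan and biglycan fell less. Podn (ENSMUSG00000028600, chromosome 4, 107871988 to 107953642, minus strand), known in the mouse as a brake on smooth muscle growth after arterial injury, had a low level of 8.97, 9.13 and 9.76 CPM in mock and 6.06, 4.31 and 4.78 CPM in overexpressing libraries (log2 fold change -0.87, SE 0.16, edgeR adjusted p = 1.14e-04). The groups did not overlap. The Podn span overlaps that of Scp2, a lipid transfer protein gene on the same strand that was also lower (log2 fold change -0.43). Scp2 had 4002 counts over the mock libraries against 477 for Podn, and reads from sequence that both genes hold cannot be told apart, so the Podn value is uncertain.

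Bgn (ENSMUSG00000031375, chromosome X, 72527208 to 72539539, plus strand) encodes biglycan, a collagen-binding proteoglycan that in soluble form can signal through Toll-like receptors 2 and 4. It was at 4958, 4995 and 5491 CPM in mock and at 4087, 3849.8 and 3923 CPM in overexpressing libraries. The groups did not overlap, and the log2 fold change was -0.38 with SE 0.060 and a 95% interval of -0.51 to -0.26 (edgeR adjusted p = 1.95e-05). Scaled by library size only, the log2 fold change was -0.27. Bgn alone held 0.475%, 0.482% and 0.526% of all counts in the mock libraries and 0.423%, 0.403% and 0.405% in the others.

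Prelp (ENSMUSG00000041577, chromosome 1, 133838042 to 133849152, minus strand) encodes a heparin-binding member that links basement membranes to the underlying matrix. Its level was 287, 274 and 298 CPM in mock and 302, 297 and 384 CPM in overexpressing libraries. The groups overlapped, and overexpressing replicate 3 stood above all other libraries. The log2 fold change was 0.20 (SE 0.075, 95% interval 0.04 to 0.35, edgeR adjusted p = 0.0374). The call was lost without overexpressing replicate 3 (0.07, adjusted p = 0.398), without mock replicate 1 (adjusted p = 0.0824) or mock replicate 2 (adjusted p = 0.151), with DESeq2 (adjusted p = 0.0571) and with limma on log2(FPKM + 0.1) (adjusted p = 0.174), and the authors' deposited table gives an adjusted p of 0.0565.

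Omd and Lum were barely present. Omd (ENSMUSG00000048368, chromosome 13, 49735938 to 49746298, plus strand), osteomodulin of bone matrix, had 14, 16 and 5 counts in mock and 10, 7 and 13 counts in overexpressing libraries. The groups overlapped, and a difference was not detectable at this depth (log2 fold change -0.26, 95% interval -1.27 to 0.74, edgeR adjusted p = 0.688). Lum (ENSMUSG00000036446, chromosome 10, 97400990 to 97408565, plus strand), lumican, which keeps corneal fibrils evenly spaced and is abundant in many fibroblasts, had 3, 4 and 5 counts in mock and 1, 0 and 0 counts in overexpressing libraries. The level of 3 counts was 0.16 to 0.185 CPM, so Lum sat at about that floor in mock and below it in the others. It did not pass the filter on low counts. The ratio of mock to overexpressing was 12.4 with an exact 95% counting interval of 1.84 to 531, which covers counting error only, and without the filter the edgeR adjusted p was 0.129. The authors' deposited table gives Lum an adjusted p of 1.

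**Figure D2:**
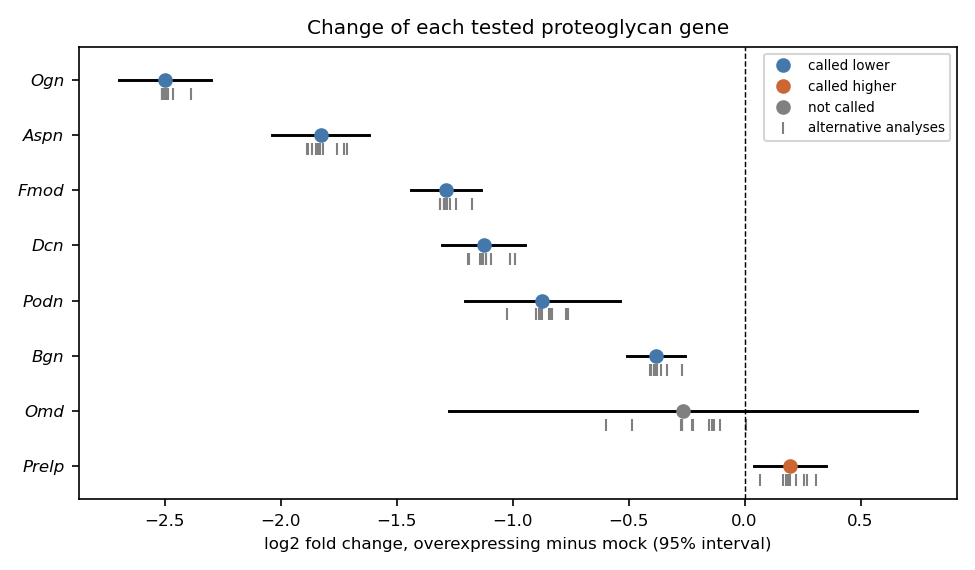
Log2 fold change of the 8 tested genes (overexpressing minus mock) with its 95% interval from the edgeR fit, and grey ticks for the alternative analyses. The 6 genes called lower (Ogn, Aspn, Fmod, Dcn, Podn, Bgn) stay left of 0 in every alternative, Prelp lies just right of 0, and the interval of Omd runs from -1.27 to 0.74.

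Mock replicate 3 held the highest mock level of 8 of the 9 genes (all but Omd), whereas 36.3% of all tested genes had their highest mock level there. Overexpressing libraries showed no such lean, with 3 genes highest in each. Leaving out mock replicate 3 changed no call among the 9.

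On a per-length scale the family was made up mostly of biglycan. The deposited FPKM (fragments scaled by gene length and by a library size that differs from the total counts) of Bgn was 840 ± 45.8 in mock and 642 ± 22.2 in overexpressing libraries (SD, n = 3), the 32nd and 31st highest of all genes. Bgn made up 84.4 ± 0.167% and 84.7 ± 1.61% of the summed FPKM of the 9 genes. Prelp followed at 78.8 ± 2.91 and 89.8 ± 13.7 FPKM, and its share was 7.92 ± 0.265% in mock and 11.8 ± 1.62% in overexpressing libraries.

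Below Prelp, the mock order was Fmod (22.4 ± 1.18 FPKM), Aspn (19.3 ± 1.72), Dcn (16.2 ± 2.47) and Ogn (16.0 ± 0.26). In that order Aspn overlapped Dcn, and Dcn overlapped Ogn, in their ranges over libraries. In the overexpressing libraries the order was Fmod (9.12 ± 0.13 FPKM), Dcn (7.37 ± 0.27), Aspn (5.40 ± 0.62) and Ogn (2.81 ± 0.046), and no neighbouring ranges overlapped. By FPKM, Dcn was thus below Aspn in each mock library and above it in each overexpressing library. This swap rests on the gene lengths given, 5838 bases for Dcn and 2354 for Aspn. By CPM, Dcn was above Aspn in every library, with means of 94.8 and 45.6 in mock and 43.4 and 12.9 in overexpressing libraries. Podn (2.16 ± 0.091 and 1.17 ± 0.21 FPKM), Omd and Lum were the lowest 3 in either group. Summed over the 7 genes other than Bgn and Prelp, the level was 72.5, 73.8 and 82.7 FPKM in mock and 25.6, 26.5 and 26.2 FPKM in overexpressing libraries. The ratio of means was 0.342 for that set, which was chosen after the values were seen. Leaving out only Bgn gave a ratio of 0.747, and the sum of all 9 had a ratio of 0.761.

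**Figure D3:**
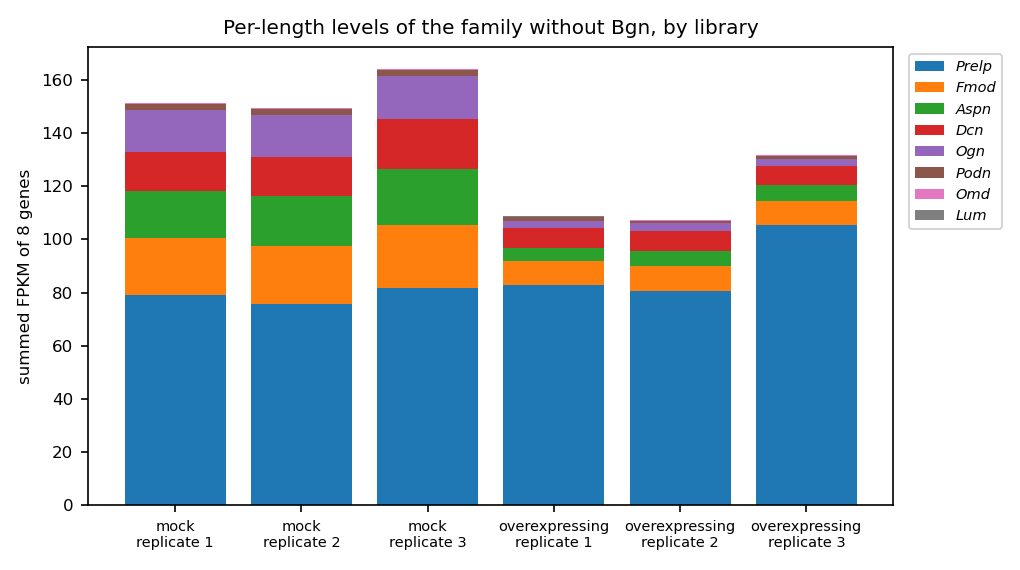
Deposited FPKM of the 8 genes other than Bgn, stacked for each of the 6 libraries on a linear axis from 0. Prelp (blue) keeps its height or grows, while the layers of Fmod, Aspn, Dcn and Ogn shrink from mock to overexpressing libraries.

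Several members lie side by side in the genome. Ecm2, Aspn, Omd and Ogn follow each other on the plus strand of chromosome 13, with 11654 bases between Ecm2 and Aspn, 14897 between Aspn and Omd, and 15224 between Omd and Ogn. Ecm2, a matrix protein with related repeats, was at 2.16, 1.93 and 2.35 CPM in mock and 0.585, 0.607 and 0.945 CPM in overexpressing libraries, and fell by 1.58 on the log2 scale (SE 0.35, edgeR adjusted p = 8.11e-04). Aspn, Ogn and Ecm2 therefore fell, while Omd between Aspn and Ogn was too low to tell. Genes farther out went both ways: Ippk, Bicd2 and Nol8 rose by log2 fold changes of 0.33, 0.78 and 0.21, while Iars also fell, by 0.27. The call of Nol8 was lost in 7 of the alternatives and that of Ippk in 3, with adjusted p-values up to 0.159 and 0.105. Cenpp, a centromere protein gene on the other strand whose span covers Ecm2, Aspn, Omd and Ogn, had 97 counts over the mock libraries against 2119 for Ogn, 110 for Ecm2 and 35 for Omd, and was not called (log2 fold change -0.85, adjusted p = 0.0878). The strand setting of the counting is not given, so reads of Cenpp and of the genes inside it cannot be told apart, which leaves the values of Omd and Ecm2, with few reads, uncertain.

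Fmod and Prelp lie on chromosome 1 with 115840 bases between them, and did not move together. The ratio of Prelp to Fmod FPKM was 3.64, 3.49 and 3.44 in mock and 9.25, 8.74 and 11.5 in overexpressing libraries. These groups do not overlap (two-sided exact permutation test p = 0.1, the smallest that 3 against 3 libraries can give), and the pair was chosen after the values were seen. Optc (opticin), a family member 2305 bases from Prelp, was not called (1.26 ± 0.028 and 0.729 ± 0.229 CPM, edgeR adjusted p = 0.104), and Btg2, an antiproliferative gene beside Fmod, was higher by 0.19 on the log2 scale, a call lost without mock replicate 1 or 2 or overexpressing replicate 1 (adjusted p = 0.116, 0.0636 and 0.161). Near Dcn and Lum, the family members Kera and Epyc had 0 and 1 counts over all 6 libraries. Of 22 tested protein-coding genes within 200 kb of any member, the members left out, 7 were lower and 7 higher. Over all tested genes the shares were 23% lower and 22.3% higher.

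**Figure D4:**
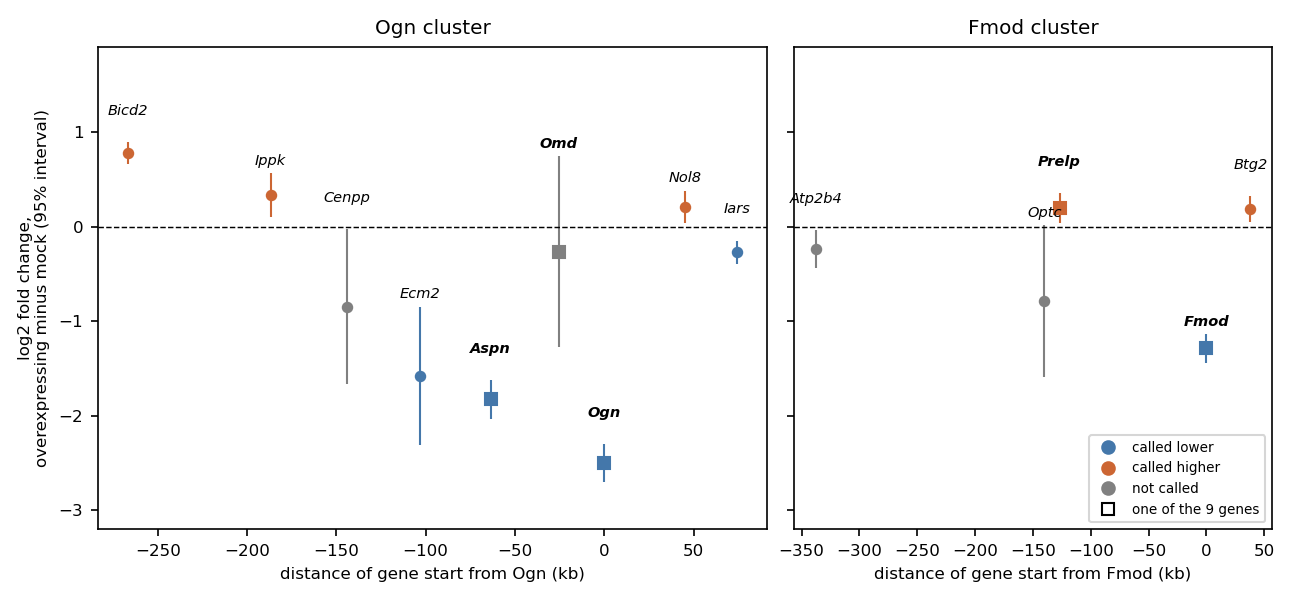
Log2 fold change with its 95% interval for tested genes around Ogn on chromosome 13 (left) and Fmod on chromosome 1 (right), against the distance in kb of the lower coordinate of each gene from that of Ogn or Fmod, with squares for the 9 genes and circles for others. Ecm2, Aspn and Ogn lie below -1 inside the left cluster while Bicd2, Ippk and Nol8 lie above 0, and on the right Fmod lies at -1.29 and Prelp at 0.20.

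The genes whose profile over the 6 libraries was nearest to that of Ogn, by distance between centred log2 CPM profiles among 11856 protein-coding genes, were Lgals3bp, Adamts4 and Ifitm3 (distances 0.147, 0.149 and 0.151). Their log2 fold changes were -2.41, -2.45 and -2.41. Nearest to Prelp were Zfp651, Trappc9 and Nfic (0.0487, 0.0742 and 0.0765), each highest in overexpressing replicate 3 like Prelp, and not called (edgeR adjusted p = 0.0925, 0.197 and 0.053).

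The other family members and the enzymes that build the sugar chains were examined next. Over all tested genes 23% were lower and 22.3% higher. Of 8 further family members 4 were tested, of which 2 fell (50%, median log2 fold change -0.62). These were Ecm2 and Tsku, tsukushi, an inhibitor of BMP and Wnt signalling in vertebrate embryos, which went from 120 ± 3.47 to 95.1 ± 4.87 CPM. Optc and Podnl1 were not called. Chondroitin and dermatan sulfate chains start from a linkage sugar on a serine of the core protein. Of 7 linkage region genes, 2 fell (28.6%, near the share over all tested genes) and 5 were not called (median -0.07). Those that fell were Pxylp1, a phosphatase that removes the xylose phosphate (log2 fold change -0.45, SE 0.086), and the galactosyltransferase B3galt6 (-0.46, SE 0.13), while B4galt7 and B3gat3 had adjusted p-values of 0.268 and 0.468.

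Enzymes that extend and modify these chains were lower in 10 of 15 and higher in 1 (median -0.31). Over all tested genes the shares were 23% lower and 22.3% higher. Csgalnact1, which adds the first sugar that commits a chain to chondroitin, was at 209, 223 and 213 CPM in mock and 58.6, 54.0 and 60.0 CPM in overexpressing libraries. The groups were far apart, with a log2 fold change of -1.90 and SE 0.062 (edgeR adjusted p = 9.10e-17). The sulfotransferase Chst11 went from 295 ± 9.61 to 146 ± 2.51 CPM. Dse, the epimerase that turns chondroitin into dermatan, went from 111 ± 5.74 to 75.3 ± 1.03 CPM, and Chst14, which sulfates dermatan, from 52.2 ± 1.49 to 35.9 ± 1.33 CPM. Chst15, the 1 gene that rose, went from 8.19 ± 1.75 to 11.6 ± 0.655 CPM, and was named after its value was seen. Of 5 tested keratan sulfate genes, 2 fell (B4galt1 and Chst2, log2 fold changes -0.56 and -0.64) and B4galt4, a galactosyltransferase, rose by 0.64, while B3gnt2 was not called (adjusted p = 0.255). The median was -0.56, and B3gnt7, Chst4 and Chst5 had at most 0.079 CPM on average in a group.

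Collagens that these proteoglycans bind were mostly lower, in 11 of 13, with 1 higher (median log2 fold change -1.15). Over all tested genes 23% were lower and 22.3% higher. Among the 11 is Col14a1, named after its values were seen, with 52, 58 and 66 counts in mock and 1, 7 and 4 in the others. It was tested only because of its mock reads, so it could not have been called higher. Col3a1 went from 2578, 2574 and 2821 CPM in mock to 634, 559 and 624 CPM in overexpressing libraries. The collagen VI chains Col6a1 and Col6a2, which decorin and biglycan bind, had log2 fold changes of -1.66 and -1.85, and Col5a3 of -2.27. The third collagen VI chain, Col6a3, was at 1104 ± 55.8 and 991 ± 73.3 CPM with groups that overlapped (log2 fold change -0.16, edgeR adjusted p = 0.0432). Col1a1, the main fibril chain, went from 13011 ± 627 to 5864 ± 764 CPM. The collagen that rose was the cartilage chain Col2a1, which like Col6a3 was chosen after its values were seen, from 1.15 ± 0.0897 to 2.55 ± 0.795 CPM.

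Growth factors and receptors that bind these proteins were lower in 8 of 18 and higher in 3 (median -0.23). Over all tested genes 23% were lower and 22.3% higher. Igf1 and Tgfb2 had log2 fold changes of -2.01 and -1.43, and the matricellular factors Ccn4 and Ccn2 of -1.05 and -0.90. Tgfb3, Egfr, Tgfb1 and Itga2, named after their values were seen, were also lower (log2 fold changes -0.54, -0.44, -0.35 and -0.57). The 3 that rose, named after their values were seen, were the endocytic receptor Lrp1, which takes up decorin (from 2870 ± 171 to 4598 ± 186 CPM), the HGF receptor Met (log2 fold change 0.46) and Bmp2 (0.265 ± 0.365 to 1.95 ± 0.826 CPM). Bmp2 had 2, 12 and 0 counts in mock and was tested only because of its reads in overexpressing libraries, so it could not have been called lower. Tlr2 and Tlr4, the Toll-like receptors of biglycan, also named after their values were seen, were not called (edgeR adjusted p = 0.256 and 0.285).

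Proteases and helpers that process or cut these proteins were lower in 9 of 12 and higher in 2 (median -0.83). Over all tested genes the shares were 23% lower and 22.3% higher. Adamts4, an aggrecanase that also cuts small proteoglycans, was at 35.5, 37.4 and 37.5 CPM in mock and 7.02, 6.43 and 6.73 CPM in overexpressing libraries. Htra1, a secreted serine protease that cuts decorin, had a log2 fold change of -1.51, and Bmp1, which trims the propeptide of biglycan, and its collagen cofactor Pcolce had -0.82 and -0.83. Adamts5 and Pcolce2 were higher, by 0.22 and 0.58 on the log2 scale, and were named after their values were seen.

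Proteoglycans outside the family were called in both directions, with 8 of 17 lower and 6 higher (median -0.17). Over all tested genes the shares were 23% lower and 22.3% higher. Agrn (agrin), a heparan sulfate proteoglycan of basement membranes, was at 240.2, 206 and 230.3 CPM in mock and 40.0, 38.4 and 40.9 CPM in overexpressing libraries. The syndecans Sdc1 and Sdc4 had log2 fold changes of -1.29 and -1.35, and betaglycan (Tgfbr3) of -0.91. Among those that rose, and chosen after their values were seen, were perlecan (Hspg2), a basement membrane proteoglycan that binds Prelp, from 1975 ± 107 to 3511 ± 220.5 CPM, and versican (Vcan), from 469 ± 10.8 to 574 ± 6.91 CPM.

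**Figure D5:**
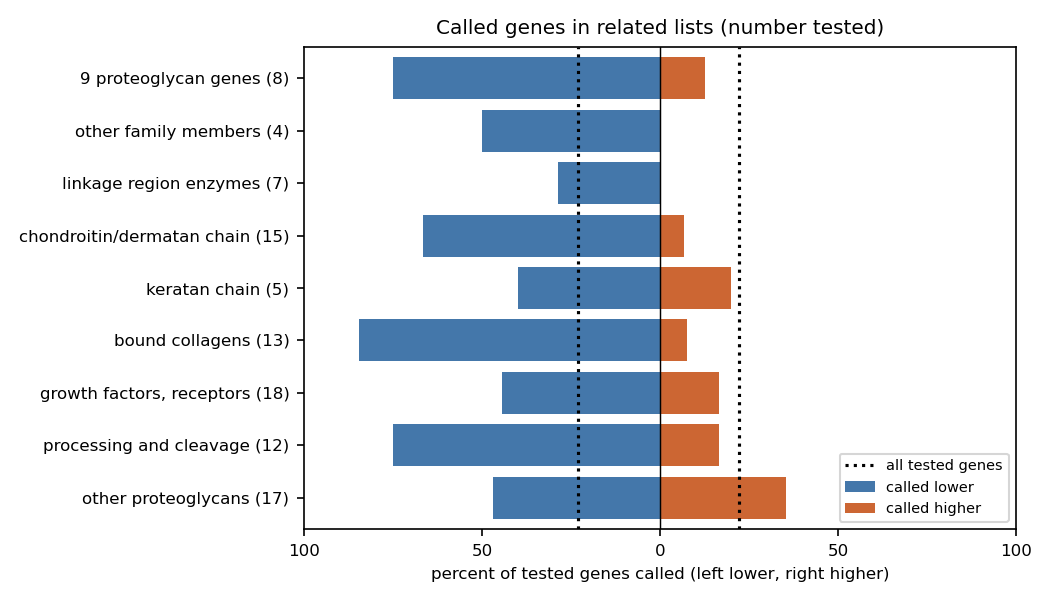
Percent of tested genes called lower (left, blue) or higher (right, orange) in the 9 genes and in each related list, with the number tested in parentheses and dotted lines at the shares over all tested genes (23% lower and 22.3% higher). The 9 genes, the chondroitin and dermatan enzymes, the bound collagens and the processing list reach farthest to the left, and the other proteoglycans reach both sides.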

How the data were processed

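RNA was sequenced from 6 libraries. Build mm39 and, without role or order, featureCounts 1.5.0-p3, HISAT2 2.0.5, fastp and StringTie 1.3.3b are listed in the submitters' processing notes. The authors deposited raw counts per gene, FPKM values, and their own log2 fold changes with p-values. For the tool behind those p-values, the strand setting and the annotation release, nothing was given in the sources used here. Groups and replicate numbers came from the sample titles.

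Counts of 56748 genes were tested with edgeR (version 4.0.16, R version 4.3.3), using TMM scaling, filterByExpr with a minimum count of 10 (14502 genes kept), the quasi-likelihood test on group alone, and Benjamini-Hochberg adjustment over all tested genes at 0.05. The standard error (SE) came from the log2 fold change and the F statistic. Levels are CPM on scaled library sizes, and the deposited FPKM served to compare levels between genes. The procedure was tested on simulated data. Within groups, no pair of libraries agreed within sampling noise (chi-square over its degrees of freedom, 3.55 to 7.47), so none was treated as a repeat deposit of another. Counting intervals and floors cover counting error only.

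The 9 genes, the lists of related genes and cell type markers (stromal, Schwann, endothelial, macrophage, mesothelial, tendon and cartilage) and the motifs were chosen with earlier results of these data known. Named were all 9 genes, up to 4 genes per list with the smallest p, some of the neighbours within 200 kb, and the 3 genes of nearest profile (mean of at least 1 CPM) to the member with the smallest p in each direction. Apart from the integrin subunits, genes outside this rule were chosen after their values were seen. That is said where they appear, except for some cell type markers and for B3gnt7, Chst4 and Chst5. Alternatives were RLE factors, library size only, no filter, DESeq2 (version 1.42.0), limma (version 3.58.1) on log2(FPKM + 0.1), a replicate block, and leaving out each library.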

Additional observations from a re-analysis of the deposited data

How the results depend on the processing

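The 6 falls among the 9 genes kept their direction and call under all 12 alternatives, with log2 fold changes of -2.51 to -2.39 (Ogn), -1.89 to -1.72 (Aspn), -1.31 to -1.17 (Fmod), -1.19 to -0.99 (Dcn), -1.03 to -0.76 (Podn) and -0.41 to -0.27 (Bgn) and adjusted p-values of at most 0.00313. The count of proteoglycans called higher was 0 with DESeq2 and ranged from 0 to 1 when single libraries were left out, which is the call of Prelp. Omd, never called, had -0.60 to 0.0082 when single libraries were left out, the highest without mock replicate 2. With library size only, the genes called higher were 1 for linkage enzymes, 2 for chondroitin and dermatan enzymes and 2 for bound collagens. Leaving out single libraries gave 1 to 2 higher for chondroitin and dermatan enzymes and 1 to 2 for the processing list. Alternatives per gene were run for named genes only, not for every list member. Among those run, signs turned, besides Omd, for uncalled genes: B3gat3 (0.0316), Bcap31 (0.0138) and Zyg11b (0.0821) with library size only, and Cpt2, which had -0.0735 to 0.146 when single libraries were left out (lowest without overexpressing replicate 3). The cause was not tested. Same-numbered libraries did not deviate together (correlations 0.0103, 0.0164 and 0.00337). With 3 libraries per group this cannot exclude that samples were paired, and the labels state no pairing. The replicate block gave 6 lower and 1 higher proteoglycans, and 3297 lower and 3183 higher over all genes. Depth limits Lum and Omd, whose counts per library were at most 5 and 16.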
